A study of Mus musculus with 3072 samples.

Results

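Neutrophil granule genes were followed in HSC, CFU and MkP, the names that the sample labels give to 3 sorted bone marrow populations without spelling them out. The set holds 9 genes, Mpo, Elane, Ctsg, Prtn3, Ms4a3, S100a8, S100a9, Lyz2 and Cebpe, taken by symbol from a count matrix of 55291 gene symbols. Lyz2 shares 15.4% of its 50-base stretches with Lyz1, Mpo 9.46% with Gm11505, Acot1 and Gm37529, and Prtn3 6.45% with Plppr3. This leaves their counts uncertain by an amount that was not measured. All 9 had counts in each population. The mice were wild-type C57BL/6 animals that had received transplanted stem cells carrying an expressed barcode. The labels give 4 mice as control, taken 32 weeks after the transplant, and 4 as platelet-depleted, taken 28 weeks after it. Treatment, week and experiment code coincided, so they cannot be told apart. Single cells were sorted into wells and made into Smart-seq2 libraries, which cover whole transcripts and carry no molecular identifiers. Each mouse, as coded in the sample titles, gave all 3 populations and was the replicate. The main fit of the populations held no term for the mouse, and fits with the mouse as a block are given beside it.

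Neutrophils are packed with granules that are filled in sequence while the cell matures in the marrow. Myeloperoxidase (Mpo) and the serine proteases neutrophil elastase (Elane), cathepsin G (Ctsg) and proteinase 3 (Prtn3) are made early and stored in the primary, or azurophil, granules. Ms4a3 encodes a membrane protein of granulocyte and monocyte progenitors. Lyz2 encodes lysozyme, an enzyme that cuts bacterial cell walls and is used as a marker of myeloid cells. S100a8 and S100a9 encode the subunits of calprotectin, an abundant cytosolic protein of late neutrophils and monocytes. Cebpe encodes the transcription factor C/EBP epsilon, which is needed for the late stages of granule formation. Megakaryocytes make platelets and erythroid cells make red cells, and neither lineage is known for azurophil granules.

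The genes of the primary granule proteins are shown first by the 250 bases in front of their RefSeq start sites, because Mpo, Ctsg and Elane were found together in few cells while Prtn3 was spread over most HSC. Promoters of 8 of the 9 genes were matched by symbol in the RefSeq table of build GRCm38.p6. Elane and Prtn3 lie on chromosome 10 on the same strand. The windows are chr11:87793534-87793783 (plus strand) for Mpo, chr14:56102575-56102824 (minus strand) for Ctsg, chr10:79886062-79886311 (plus strand) for Elane and chr10:79879417-79879666 (plus strand) for Prtn3. They are printed 5′ to 3′ on the strand of the gene, with matches to the motifs GAGGAA (PU.1), AACNG (MYB), TTGCNNAA (C/EBP) and TGTGGT (RUNX) on either strand in capitals.
Mpo: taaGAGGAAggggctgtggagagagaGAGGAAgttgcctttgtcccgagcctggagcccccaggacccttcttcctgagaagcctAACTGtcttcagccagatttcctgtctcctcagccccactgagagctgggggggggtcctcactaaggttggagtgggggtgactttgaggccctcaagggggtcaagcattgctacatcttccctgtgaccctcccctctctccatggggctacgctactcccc
Ctsg: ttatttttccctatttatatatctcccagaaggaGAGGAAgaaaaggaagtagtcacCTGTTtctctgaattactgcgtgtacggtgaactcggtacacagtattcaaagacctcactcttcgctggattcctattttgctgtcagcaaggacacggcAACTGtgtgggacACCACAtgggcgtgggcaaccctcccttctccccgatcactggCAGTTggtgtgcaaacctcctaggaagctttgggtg
Elane: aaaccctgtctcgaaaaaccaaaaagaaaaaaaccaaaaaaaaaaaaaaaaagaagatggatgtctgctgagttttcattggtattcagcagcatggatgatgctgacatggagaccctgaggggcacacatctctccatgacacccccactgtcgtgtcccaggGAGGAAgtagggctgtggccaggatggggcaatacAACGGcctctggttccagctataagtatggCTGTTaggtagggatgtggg
Prtn3: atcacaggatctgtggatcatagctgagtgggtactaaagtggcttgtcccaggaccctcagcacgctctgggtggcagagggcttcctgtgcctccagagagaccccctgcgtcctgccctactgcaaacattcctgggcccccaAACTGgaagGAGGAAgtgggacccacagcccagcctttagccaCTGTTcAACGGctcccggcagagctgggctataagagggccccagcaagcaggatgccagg
Each of these windows held GAGGAA, at 2 places in Mpo and at 1 place in Ctsg, Elane and Prtn3. That motif was present in 23.3% of the 32851 promoter windows of the same length. Among the matched genes not printed, S100a8 held it at 2 places, and Ms4a3, S100a9 and Lyz2 did not hold it. MYB matches numbered 1 in Mpo, 3 in Ctsg, 2 in Elane and 3 in Prtn3, and 74.2% of all windows held one. Ctsg had 1 RUNX match, a motif of 14% of windows. No C/EBP match was found in these windows, and the motif stood in 9.56% of all windows. The window of S100a9, not printed, held 1 C/EBP match. No matches overlapped. Prtn3 and Elane did not differ in which of the motifs they held.

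After a filter on depth, 697 HSC, 647 CFU and 1324 MkP wells remained of 3069, with a median of 1718305 counts per well. Summed counts per mouse and population ran from 68792249 to 327869432. Erythroid markers summed to 12070 to 16720 CPM (counts scaled to the same library total) in CFU, against 1718 to 2441 CPM in MkP and 1902 to 2906 CPM in HSC. Megakaryocyte markers summed to 5008 to 7334 CPM in MkP, 1762 to 2442 CPM in HSC and 28.7 to 47 CPM in CFU. The authors' deposited table calls 69 of the CFU wells of control mouse 2 MkP, but all 72 kept wells of that plate had Klf1 at 50 CPM or more, so the sample labels were followed.

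In HSC the primary granule genes split into a broadly expressed gene, Prtn3, and 3 genes that were close to 0 in most cells. Prtn3 was highest in HSC, at a mean of 279 ± 57.4 CPM (SD, n = 8 mice), and stood at 49.4 ± 7.82 CPM in MkP and 46.8 ± 52.7 CPM in CFU. Mpo was at 1.43 ± 1.67 CPM in HSC, 43.7 ± 75.1 CPM in MkP and 294 ± 327 CPM in CFU. Ctsg followed at 0.058 ± 0.088 CPM in HSC, 8.70 ± 15.1 CPM in MkP and 52.1 ± 57.4 CPM in CFU. Elane was at 0.47 ± 0.82 CPM in HSC, 0.82 ± 1.88 CPM in MkP and 73.8 ± 92 CPM in CFU. Fewer cells with a transcript and less transcript per cell cannot be told apart in these sums, so the single cells are given further on.

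The levels of Mpo in CFU fell into separate groups of mice. In control mice 1 to 4 Mpo stood at 789, 2.01, 505.5 and 0.10 CPM. In depleted mice 1 to 4 it stood at 0.015, 612, 6.55 and 433 CPM. Both treatments therefore held mice with high Mpo and mice near 0, and their ranges overlapped. Few cells made the high sums. Mpo was at 50 CPM or more in 3 and 5 cells of control mice 1 and 3. In depleted mice 2 and 4, 1 cell each held 99.9% and 99.8% of the Mpo counts. Without it those sums were at 0.491 and 0.831 CPM. Ctsg and Elane were high in the same mice, control mice 1 and 3 and depleted mice 2 and 4, with Ctsg at 121, 116, 72.9 and 107 CPM. Elane stood at 83.1, 206, 87.3 and 214 CPM in those mice and at 0.026 CPM or less in the others. Prtn3 was at 101, 128, 48.5 and 89.7 CPM in them and between 1.02 and 2.74 CPM in the other mice.

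In MkP the spread of Mpo had another form. The control mice had 20, 227, 15 and 12 CPM and the depleted mice had 13.5, 8.44, 8.18 and 45.2 CPM. Every MkP sum was above every HSC sum, the highest of which was 4.84 CPM, and 11.6% of all genes tested were without overlap there. Control mouse 2 stood far above the rest, and without its highest cell it was at 11.4 CPM. Ctsg was likewise highest in control mouse 2, at 45.5 CPM, against 0.97 to 9.45 CPM in the other 7 mice. Ctsg and Ms4a3 were also higher in every MkP sum than in every HSC sum, and Prtn3 was lower.

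**Figure D1:**
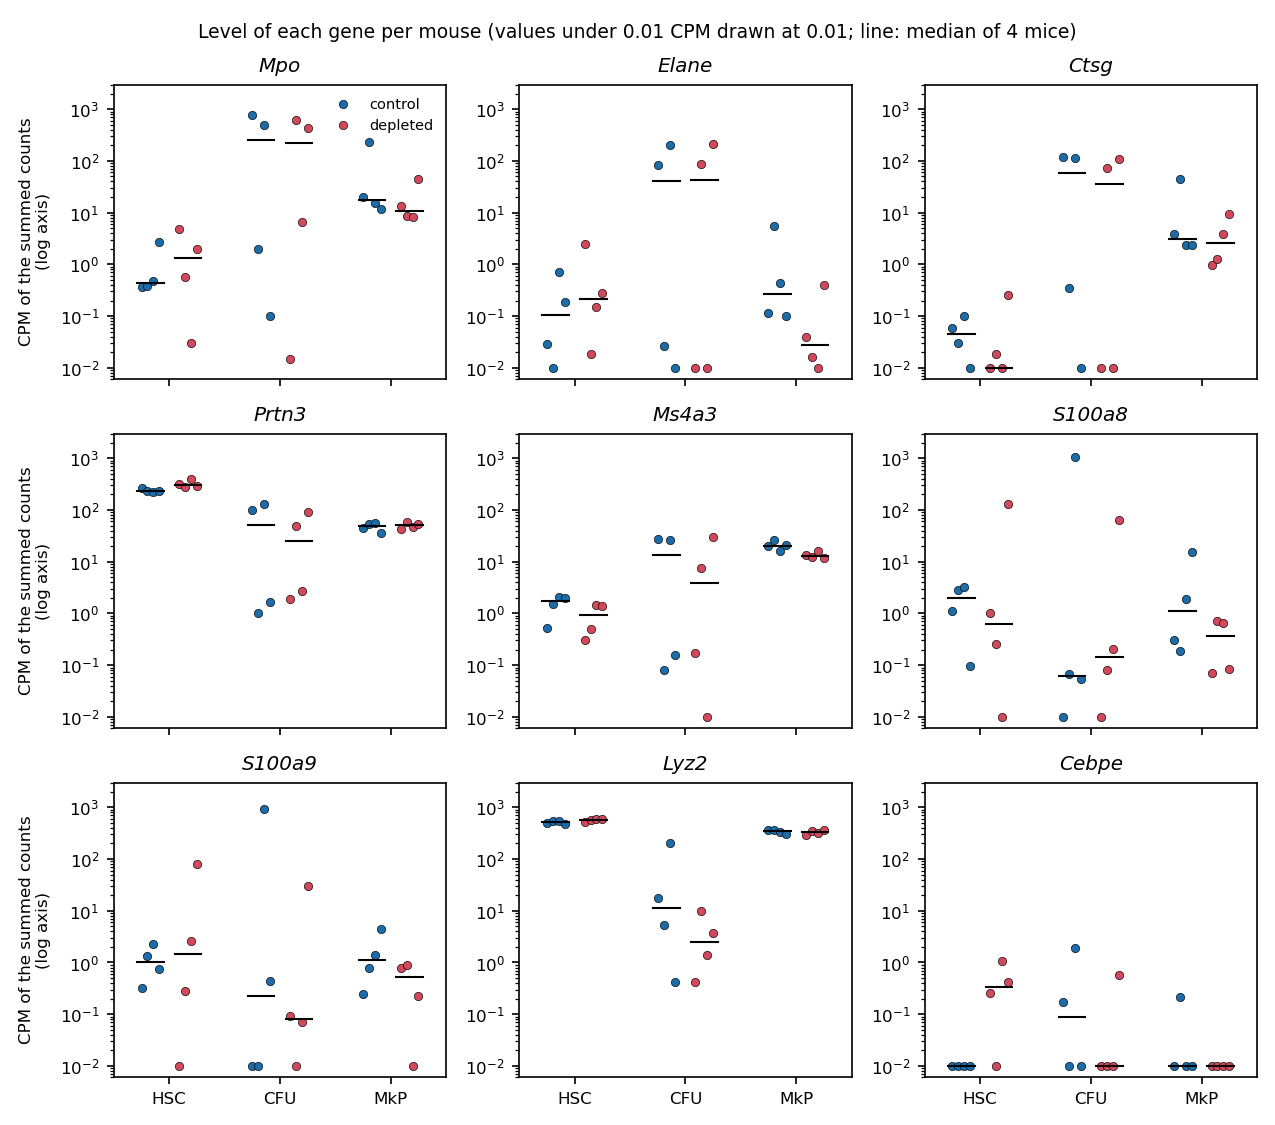
Level of each gene in CPM of the summed counts (log axis), 1 point for each mouse, in HSC, CFU and MkP, with control mice in blue and depleted mice in red. Lines mark the median of 4 mice. Prtn3 and Lyz2 are tight and high in HSC, and the CFU values of Mpo, Elane, Ctsg and Prtn3 separate into 4 high and 4 low mice.

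Across the populations, edgeR's quasi-likelihood test over all 24 sums called 4 of the 9 genes different in MkP from HSC. Of all 19573 genes tested, 31% were called there, 17.4% as higher and 13.6% as lower, so the share of the granule genes is read against a large background. Ctsg (log2 fold change 7.09 ± 1.81 SE, adjusted p = 0.00408), Mpo (4.82 ± 1.5, adjusted p = 0.0161) and Ms4a3 (3.90 ± 1.06, adjusted p = 0.00678) rose, and Prtn3 fell (-2.41 ± 0.75, adjusted p = 0.0165). The median log2 fold change of the 9 genes was -0.64, beside 0.007 for all genes. The Mpo call ended with the mouse as a block (adjusted p = 0.0642) and without control mouse 2 (log2 fold change 3.55, adjusted p = 0.0539). Over the alternatives its adjusted p ran from 0.000264 to 0.0642.

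Elane, cytosolic calprotectin and the regulator were not called in that comparison. Elane stood at 0.51 ± 1.88 on the log2 scale (adjusted p = 0.877). S100a8 and S100a9 had log2 fold changes of -4.45 ± 2.75 and -4.13 ± 2.42 with adjusted p of 0.243 and 0.217. Cebpe was at 1.05 CPM or less in every HSC and MkP sum. Lyz2 was a special case, since its MkP levels (298, 340.5 and 370 CPM as lowest, median and highest) did not overlap its HSC levels (480, 543.5 and 594 CPM). Groups without overlap made up 11.6% of the genes tested. In the fit over all sums the Lyz2 difference of -0.64 ± 0.80 was not called (adjusted p = 0.602), while the fit of HSC and MkP alone called it (log2 fold change -0.64, adjusted p = 2.38e-06).

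CFU differed from HSC in 6 of the 9 genes, where 64.9% of all genes were called, 28.8% as higher and 36.1% as lower. Ctsg (10.24 ± 1.99, adjusted p = 9.39e-05), Mpo (8.05 ± 1.68, adjusted p = 0.000202), Elane (7.65 ± 2.06, adjusted p = 0.00234) and Ms4a3 (3.71 ± 1.06, adjusted p = 0.00366) rose. Lyz2 (-4.29 ± 0.97, adjusted p = 0.000442) and Prtn3 (-2.13 ± 0.75, adjusted p = 0.016) fell. Prtn3 and Lyz2 did not overlap between CFU and HSC, as was the case for 34.7% of all genes. Ctsg, Mpo, Elane and Ms4a3 did overlap. In CFU, Ms4a3 stood at 0.079, 0.155, 0.174 and 0.0050 CPM in control mice 2 and 4 and depleted mice 1 and 3. Its lowest HSC sum was 0.313 CPM. Mpo ran from 0.015 to 789 CPM in CFU and from 0.030 to 4.84 CPM in HSC. The median log2 fold change of the 9 genes was 2.66, beside -0.23 for all genes. With the mouse as a block Elane and Ms4a3 were no longer called (adjusted p = 0.0549 and 0.106). With each gene's highest cell left out of every sum they were at adjusted p of 0.103 and 0.419. With the cells that held 5 or more of the 9 genes left out, mean Elane was 0.107 CPM in CFU and 0.475 CPM in HSC. Ms4a3 was then at 0.092 and 1.12 CPM, so both were lower in CFU. Mpo (3.75 and 1.44 CPM) and Ctsg (1.03 and 0.0585 CPM) remained higher in CFU by their means, and no test was made of these levels.

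Between CFU and MkP 5 of the 9 genes were called, against 55.3% of all genes, 23.5% as higher and 31.8% as lower. Elane (7.14 ± 2.05, adjusted p = 0.00486), S100a9 (6.79 ± 2.35, adjusted p = 0.0172), S100a8 (6.15 ± 2.30, adjusted p = 0.0267) and Mpo (3.23 ± 1.36, adjusted p = 0.0473) rose in CFU. Lyz2 fell (-3.65 ± 0.94, adjusted p = 0.002), and its levels did not overlap, as for 29.6% of all genes. The levels of Elane, S100a9, S100a8 and Mpo overlapped between CFU and MkP. The count was 2 with the mouse as a block and 2 without control mouse 3. Without that mouse S100a8 and S100a9 stood at -0.96 and -0.08 on the log2 scale. The Mpo call was kept in 8 of 18 alternatives, with adjusted p from 0.000312 to 0.284.

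Calprotectin genes were high in the sums of few mice. In CFU, S100a8 stood at 0, 0.069, 1043 and 0.053 CPM in control mice 1 to 4. In depleted mice 1 to 4 it stood at 0, 0.080, 0.204 and 64.1 CPM. S100a9 was at 943 CPM in control mouse 3 and 29.7 CPM in depleted mouse 4, and at 0.446 CPM or less in the other CFU sums. In HSC the highest sums were those of depleted mouse 4, at 129 CPM for S100a8 and 79.4 CPM for S100a9. A single HSC held 92.5% of the S100a8 counts and 91.4% of the S100a9 counts of all 697.

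Lyz2 and Prtn3 were broad in HSC, whereas the other genes sat in few cells. Per kilobase of transcript, Lyz2 reached 411.5 CPM and Prtn3 161 CPM in HSC, and the next genes, S100a8 and S100a9, 24.8 and 20.9 CPM. Lyz2 was at 50 CPM or more in 666 of 697 HSC (95.6%) and Prtn3 in 590 (84.7%). The shares by mouse ran from 92.6% to 98.9% for Lyz2 and from 80.2% to 90.8% for Prtn3. Mpo reached that level in 5 HSC, Ms4a3 in 8, Elane in 2 and Ctsg in 0, which allows a share of up to 0.43% by counting error alone. In 555 HSC exactly 2 of the 9 genes were at 50 CPM or more.

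MkP kept Lyz2 in most cells and Prtn3 in a minority. Of 1324 MkP cells, 1170 (88.4%) had Lyz2, 404 (30.5%) Prtn3, 141 (10.6%) Ms4a3, 56 (4.23%) Mpo, 21 (1.59%) Ctsg and 3 (0.227%) Elane at 50 CPM or more. Thinned to 20000 counts a cell, the shares with a count were 87.8%, 33.6%, 17.4%, 5.21%, 1.81% and 0.227%. Mpo cells were found in every mouse, in 9, 7, 8 and 4 cells of control mice 1 to 4 and in 10, 4, 7 and 7 cells of depleted mice 1 to 4. That makes 28 cells in each treatment. By cell, Mpo in MkP was therefore more even than by counts, 62.1% of which lay in 1 cell. Ms4a3 counts were spread more widely, and 284 cells were needed for 90% of them.

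CFU cells were mostly without any of these genes. In 624 of 647 CFU none of the 9 genes reached 50 CPM. Lyz2 reached it in 19 cells, Prtn3 in 13, Mpo in 11, Ms4a3 in 10, Ctsg in 9, Elane in 7, S100a8 in 6, S100a9 in 5 and Cebpe in 4. Only 6 cells held 90% of the Mpo counts, 5 those of Elane and 3 those of S100a8.

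**Figure D2:**
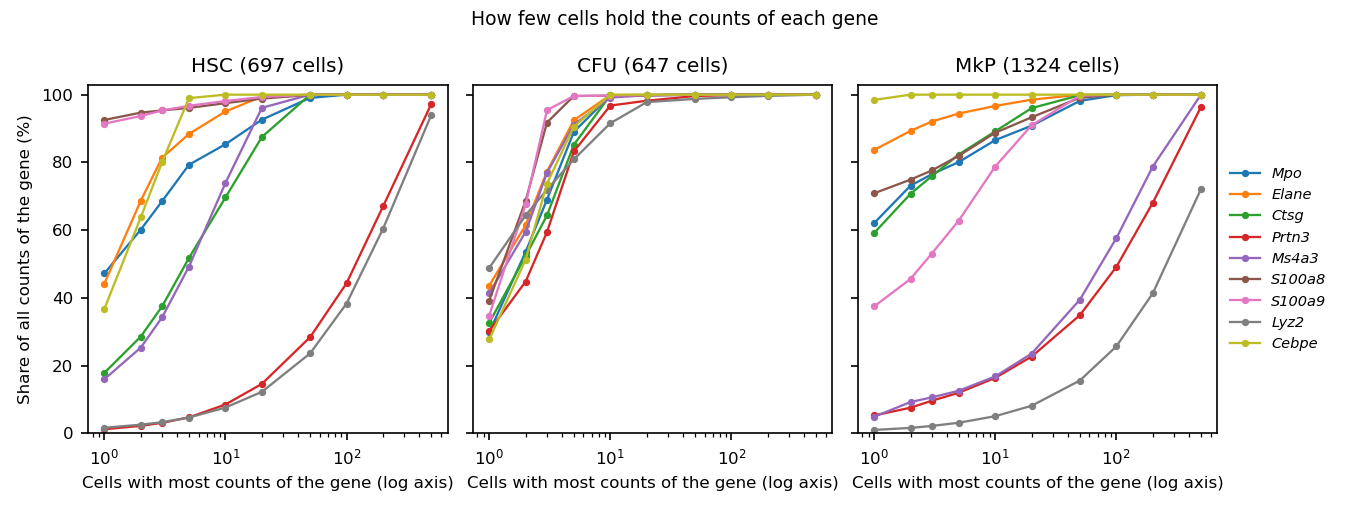
Share of all counts of each gene (percent) held by the cells with most counts of it (number of cells, log axis), for the 697 HSC, 647 CFU and 1324 MkP. In CFU all 9 curves pass 80% within 5 cells, while Prtn3 and Lyz2 stay under 50% at 100 cells in HSC.

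Cells with at least 5 of the 9 genes at 50 CPM numbered 10 in CFU, 3 in MkP and 1 in HSC. The 10 CFU cells held 98.9% of the Mpo, 99.9% of the Elane, 98.5% of the Ctsg, 96% of the Prtn3, 99.6% of the S100a8 and 86.1% of the Lyz2 counts of all CFU. They came from control mouse 1 (2 cells), control mouse 3 (6 cells), depleted mouse 2 (1 cell) and depleted mouse 4 (1 cell), and were 8 of 300 control and 2 of 347 depleted cells. Without them the CFU sums held at most 17.9 CPM of Mpo, 7.5 CPM of Ctsg, 3.02 CPM of Prtn3 and 0.386 CPM of Elane. These cells were chosen by the genes themselves, so their levels are described without a test.

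Among the 10 CFU cells the primary granule genes and calprotectin were not always together. Mpo was at 1000 CPM or more in 8 cells, and from 8700 to 44690 CPM in those. The other 2 cells, both of control mouse 3, had Mpo at 13 and 0 CPM. Those 2 cells had S100a8 at 110700 and 96800 CPM and S100a9 at 85370 and 94160 CPM. They also had Ngp, a secondary granule gene, at 81360 and 46500 CPM, and Ltf, the lactoferrin gene, at 27290 and 7278 CPM. A further cell of that mouse had both, with Mpo at 15990 CPM, Elane at 13170 CPM, S100a8 at 56200 CPM and Ngp at 23660 CPM. The cell of depleted mouse 4 had the highest Mpo, 44690 CPM, together with S100a8 at 6609 CPM and no Ngp. The 2 cells of control mouse 1 and that of depleted mouse 2 had Mpo between 24440 and 34330 CPM and no S100a8 count.

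Cebpe followed the calprotectin cells. It was at 157.5 and 92.6 CPM in the 2 cells low in Mpo, at 143 CPM in the cell with both and at 58.6 CPM in the cell of depleted mouse 4. In the other 6 CFU cells it stood at 18.5 CPM or less.

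Erythroid and megakaryocyte genes were near 0 in the granule-rich CFU cells. Klf1, an erythroid transcription factor that was at 50 CPM or more in 558 of 575 kept CFU wells on the other plates, reached at most 8.41 CPM in the 10 cells. Gata1 reached at most 3.73 CPM. Of 15 erythroid markers, 0 to 2 were at 50 CPM or more, and of 14 megakaryocyte markers 0 or 1. Of 12 other primary granule and promyelocyte genes, 6 to 12 were at that level, and of the 6 NADPH oxidase genes, which make the oxidative burst, 4 to 6. Of 10 monocyte and macrophage genes, 1 to 7 were at 50 CPM or more in these cells. Their library depth ran from the 2.70th to the 95.4th percentile of their mice, but only the cell of depleted mouse 2 was above the 56th. The cells with S100a8 at 56200 CPM or more, all of control mouse 3, were at the 2.70th, 4.05th and 6.76th percentile. All 10 are in the authors' deposited table, with 20 to 738 reads of the clonal barcode.

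The 3 MkP cells were unlike each other. The cell of control mouse 2 had Mpo at 24720 CPM, Ctsg at 4711 CPM, Prtn3 at 2304 CPM and Elane at 618 CPM. Its Pf4, the platelet factor 4 gene, stood at 4.54 CPM and its Itga2b, the integrin alpha IIb gene, at 4.92 CPM. The cell of control mouse 3 had Mpo at 435 CPM beside Pf4 at 2743 CPM, Itga2b at 886 CPM and Gata1 at 311 CPM. That of control mouse 1 had Mpo at 886 CPM, Itga2b at 161.5 CPM, Pf4 at 37.6 CPM and Gata1 at 0.746 CPM. The cell of control mouse 3, with Pf4 and Gata1, is not in the authors' deposited table. The other 2 are, both with reads of the clonal barcode. In library depth the 3 cells stood at the 83.5th to 92.2nd percentile of their mice. That of control mouse 3 had 11885 genes, at the 98.1st percentile. Together these 3 cells held 66.5% of the Mpo counts of MkP, 83.7% of Elane, 63.2% of Ctsg, 9.8% of Ms4a3 and 6.2% of Prtn3. The HSC of depleted mouse 4 had S100a8 at 9263 CPM, Ngp at 10160 CPM, Lyz2 at 5249 CPM and no Mpo, together with 8 of 9 HSC markers. It stood at the 75.5th percentile of its mouse in depth and at the 96.8th in number of genes. Whether any of these wells held more than 1 cell was not tested.

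**Figure D3:**
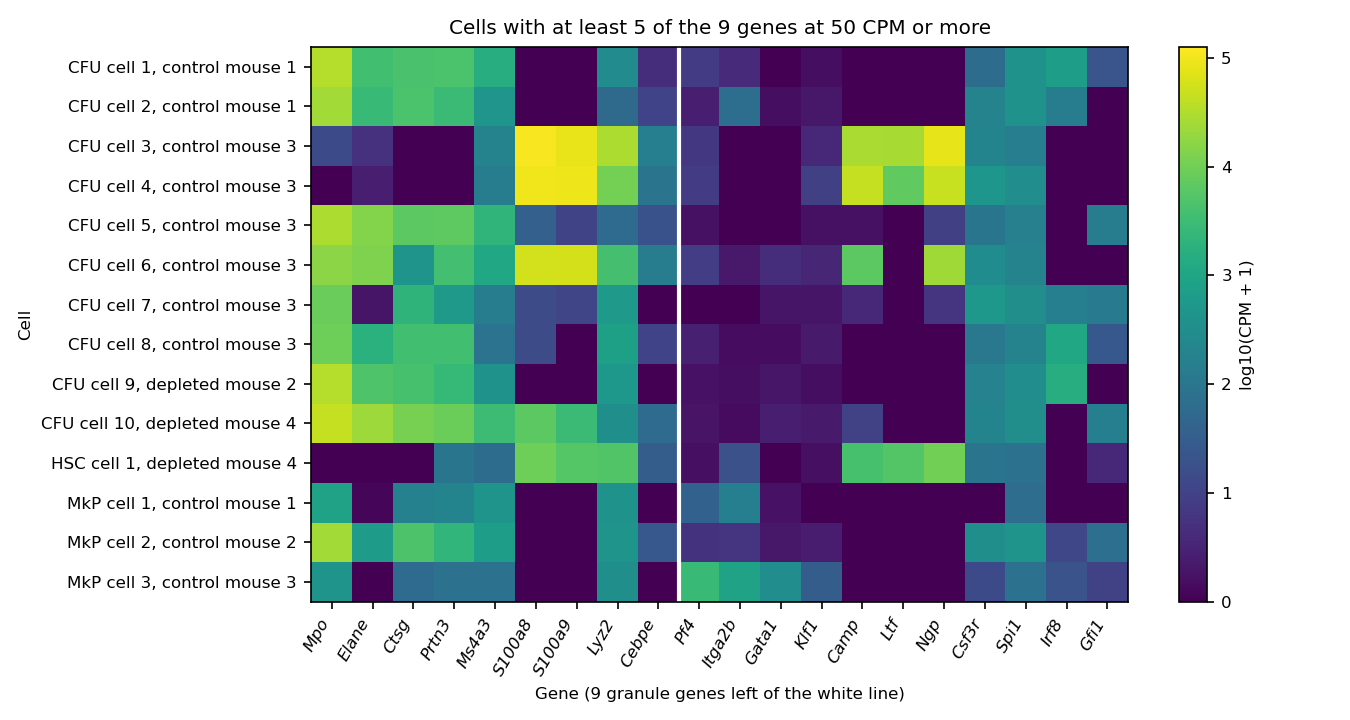
Heat map of log10(CPM + 1) in the 14 cells with at least 5 of the 9 granule genes at 50 CPM or more, 1 row for each cell and 1 column for each gene, with marker genes to the right of the white line. CFU cells 3 and 4 are bright for S100a8, S100a9, Camp, Ltf and Ngp and dark for Mpo, and MkP cell 3 is the only row bright for Pf4.

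Counts of Mpo were also seen at low level beside the rich wells. On the 5 CFU plates with a well at 1000 CPM or more, 1.27% to 47.1% (median 25.6%) of the other kept wells had at least 1 Mpo count. On the 3 CFU plates without such a well the share was 1.27% to 18.1% (median 3.23%). The summed level of the other wells was 0.00499 to 2.07 CPM on the plates with such a well and 0.0145 to 2.01 CPM on those without. On MkP plates 15.3% to 27.9% (median 21.5%) of the other wells had an Mpo count on the 3 plates with such a well, and 2.13% to 38.7% (median 7.14%) on the 13 without. The other MkP wells summed to 9.44 to 15.2 CPM on the 3 plates with such a well and to 3.34 to 26.3 CPM on the 13 without. Passage of reads between wells was not tested.

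Pf4 and Itga2b were lower in MkP cells with Mpo than in the other MkP cells by their medians. Pf4 was at 50 CPM or more in 28.6% of the 56 Mpo cells and in 73.8% of the other 1268, and lower in the Mpo cells of all 8 mice. Its median was 26.6 CPM in Mpo cells and 735 CPM in the others. Itga2b had a median of 593 CPM in Mpo cells and 1222 CPM in the others, and Gata1 of 225 CPM and 204 CPM. Itga2b was at 50 CPM in 89.3% and 94.6%, and Gata1 in 73.2% and 77.3%, each lower in 5 of 8 mice and higher in 3. Klf1 was at 33.9% and 33.8%. Epor, the erythropoietin receptor gene, was at 23.2% and 40.4%, lower in the Mpo cells of 7 of 8 mice. Cd34, a gene of stem and early progenitor cells, stood at 85.7% against 42%, higher in the Mpo cells of 8 of 8 mice. Csf3r, the receptor gene for granulocyte colony-stimulating factor, was at 23.2% against 4.42%, higher in 7 mice. Median depth was 1822156 counts in Mpo cells and 1639774 in the others. With the 3 cells of 5 or more granule genes left out, the Pf4 shares were 28.3% and 73.8%. In cells thinned to 20000 counts the Pf4 shares were 56.5% and 76.9%, still lower in 8 of 8 mice.

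Other granule genes in Mpo cells of MkP went along in part. Prtn3 was at 50 CPM in 62.5% of them against 29.1% of the other cells, Ctsg in 19.6% against 0.789% and Ms4a3 in 21.4% against 10.2%. Lyz2 was close, at 91.1% and 88.2%. S100a8 and S100a9 reached 50 CPM in 0 of the 56 cells, which allows a share of up to 5.36%. Each was at 50 CPM in 0.394% of the other cells, so the 0 does not set the Mpo cells apart.

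Among MkP cells without Lyz2, Klf1 was found in a larger share and Pf4 and Itga2b in a smaller share than among those with it. Klf1 was at 50 CPM in 55.8% of the 154 cells without Lyz2 and in 30.9% of the 1170 with it. The share was higher in the cells without Lyz2 in 8 of 8 mice. Pf4 was at 46.1% in cells without Lyz2 and 75.3% in cells with it, and Itga2b at 76% and 96.8%, lower without Lyz2 in all 8 mice. Cells without Lyz2 had a median of 1366701 counts and those with it 1685403. Thinned to 20000 counts a cell, the Klf1 shares were 51.9% without and 30.1% with a Lyz2 count, higher without in 8 of 8 mice.

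Pf4 was found in a smaller share of the MkP cells with Prtn3 than of the rest. Pf4 stood at 65.1% of the 404 Prtn3 cells and 74.9% of the others, lower in 8 of 8 mice. In thinned cells the Pf4 shares were 73.5% and 77%, lower in 5 of 8 mice. Cd34 was at 58.9% with Prtn3 and 37.2% without, higher in 8 of 8 mice. MkP cells with Ms4a3 had Pf4 at 68.8% against 72.3% and Itga2b at 98.6% against 93.9%. In thinned cells Pf4 was at 78.8% with and 75.2% without Ms4a3, higher with it in 6 of 8 mice.

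HSC without Prtn3 carried more megakaryocyte-erythroid transcripts than HSC with it. Gata1, a transcription factor of both lineages, was at 50 CPM in 34.6% of the 107 HSC without Prtn3 and in 7.12% of the 590 with it. Itga2b was at 67.3% against 37.8%. Both were higher without Prtn3 in 8 of 8 mice. Csf3r was at 16.8% without and 41% with Prtn3, and Procr, an HSC marker, at 33.6% and 69%, each lower without Prtn3 in 8 of 8 mice. Median depth was 1420290 counts without and 1335684 with Prtn3. In thinned cells Gata1 was at 35.3% and 7.79%. Cd34, Csf3r, Epor and Procr were added to the markers after the values had been seen, and none of these splits of cells carries a test.

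**Figure D4:**
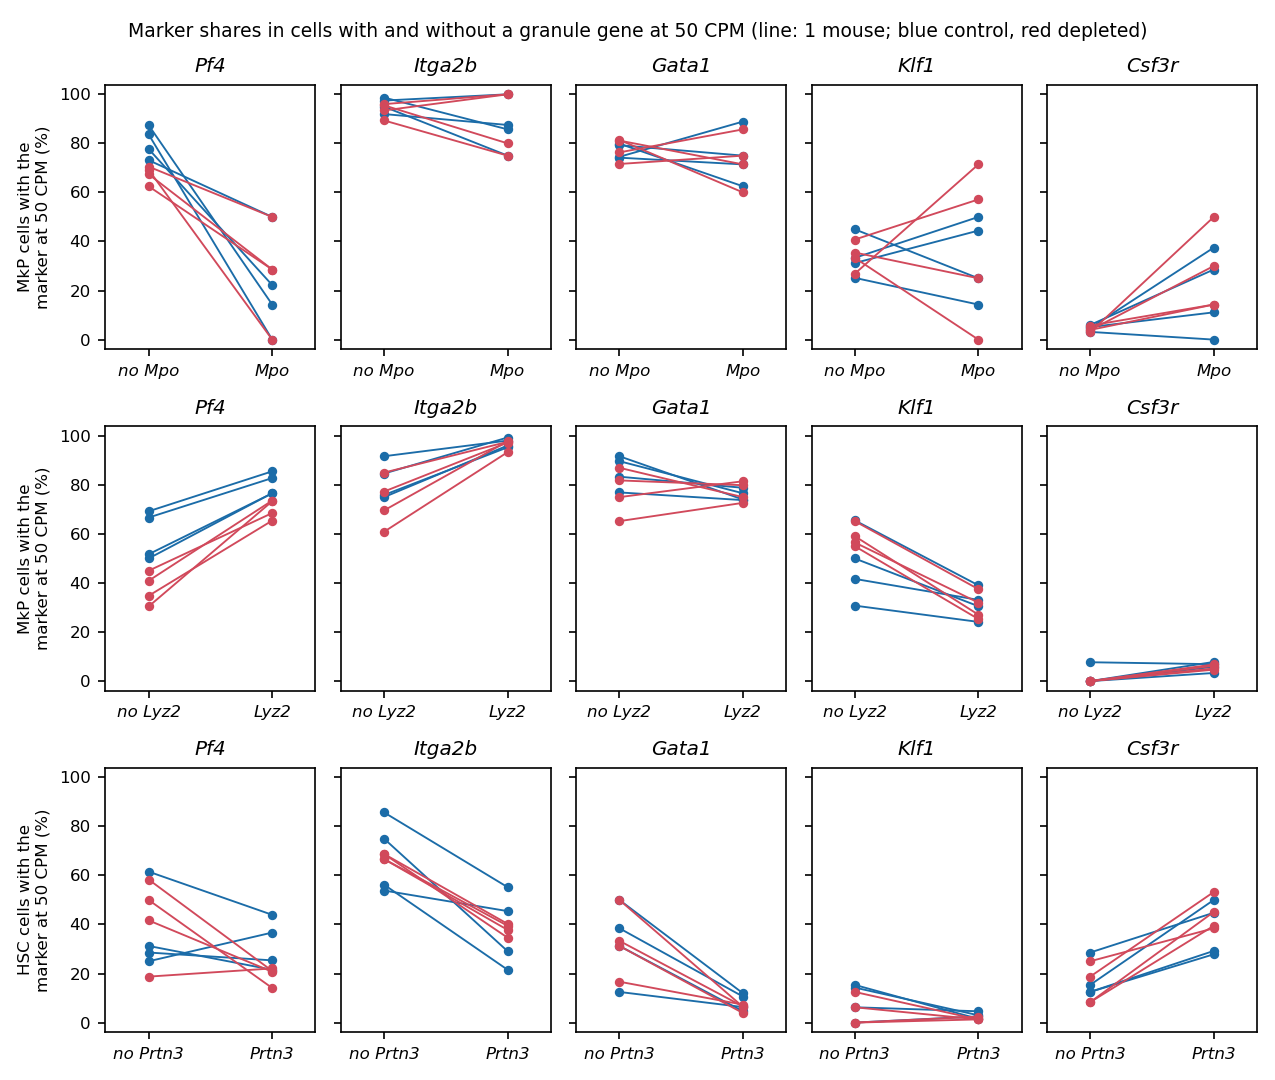
Percent of cells with a marker gene at 50 CPM or more, in cells without (left) and with (right) a granule gene at 50 CPM, with 1 line for each mouse (blue control, red depleted). Rows show Mpo in MkP, Lyz2 in MkP and Prtn3 in HSC. The Pf4 lines fall toward the Mpo cells in all 8 mice, and the Gata1 lines fall toward the Prtn3 cells of HSC in all 8 mice.

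No granule gene was called between depleted and control mice. Per population, edgeR called 0 of the 7 members that passed the filter in HSC, 0 of 8 in CFU and 0 of 8 in MkP. Of all genes, 0%, 0% and 0.0108% were called. At an unadjusted p under 0.05 stood 1 member in HSC, 1 in CFU and 2 in MkP. Of all genes, 1467 of 17146 in HSC, 1817 of 15661 in CFU and 2532 of 18512 in MkP did so. DESeq2 called 0 members in HSC, 0 in CFU and 2 in MkP, namely Ms4a3 (adjusted p = 0.00294) and S100a8 (adjusted p = 0.0286). The share of all genes that DESeq2 called was 5.16% in MkP, 3.01% in CFU and 1.56% in HSC.

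Prtn3 in HSC was at 262, 230, 222 and 236 CPM in the control mice and at 321, 278, 395 and 289 CPM in the depleted mice. The groups did not overlap, as was the case for 8.21% of the genes tested there. No granule gene was without overlap in CFU or MkP, where 8.40% and 10.2% of all genes were. The log2 fold change was 0.32 ± 0.11 with an adjusted p of 0.489 by edgeR. Ms4a3 in MkP was at 20.3, 25.9, 16.4 and 20.7 CPM in the control and at 13.4, 12.4, 16.5 and 12 CPM in the depleted mice, with an overlap of 1 mouse each. Its log2 fold change was -0.67 ± 0.16 (adjusted p = 0.172). S100a8 in MkP had -3.59 ± 1.45 (adjusted p = 0.324), with control mouse 4 at 15.4 CPM and the other 7 mice at 1.88 CPM or less. Lyz2 in CFU had -3.92 ± 1.62 (adjusted p = 0.399), with control mouse 3 at 201 CPM and the others at 0.412 to 17.6 CPM.

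A test of whether the effect of depletion differed between populations called none of the 9 genes in any of the 3 interactions. The background was 0.0144% for MkP against HSC, 0% for CFU against HSC and 0% for CFU against MkP. At an unadjusted p under 0.05 stood 1, 3 and 1 members, beside 1261, 1887 and 1229 of the 20852 genes tested. DESeq2 called 1 member, Cebpe, in each interaction, a gene with counts in 6 HSC, 9 CFU and 2 MkP cells. Of all genes it called 1.51%, 2.82% and 2.19% there, in the same order.

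Further genes of the primary granule and promyelocyte stage moved in both directions. In MkP against HSC, 3 of the 11 that passed the filter rose and 1 fell, with a median log2 fold change of 1.05. Cst7, the cystatin F gene, rose from a mean of 2.77 to 52.6 CPM (log2 fold change 4.27 ± 1.08, adjusted p = 0.00364). Nkg7, a gene of cytotoxic granules, rose from 38.4 to 397 CPM (3.48 ± 0.72, adjusted p = 0.000605). Gstm1 fell from 290.0 to 56.5 CPM (-2.28 ± 0.33, adjusted p = 1.25e-05). In CFU against HSC, 1 rose and 5 fell of 11, and in CFU against MkP 0 rose and 6 fell. Of all genes, 17.4% rose and 13.6% fell in MkP against HSC. The shares were 28.8% and 36.1% in CFU against HSC, and 23.5% and 31.8% in CFU against MkP.

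Few secondary granule and late neutrophil genes were called. Of 14 such genes 9 passed the filter. In CFU against HSC 1 rose and 1 fell, beside 28.8% and 36.1% of all genes. In MkP against HSC 0 rose and 1 fell, beside 17.4% and 13.6% of all genes. Padi4, a histone deiminase gene, was the one that fell, from 142 to 20.7 CPM (-2.69 ± 0.83, adjusted p = 0.0155). It fell further in CFU, to 0.954 CPM (-6.82 ± 1.02, adjusted p = 2.96e-06), where Hp, the haptoglobin gene, rose (5.32 ± 2.20, adjusted p = 0.0377). Their summed level was 99.5 to 524.5 CPM in HSC, 17.3 to 45.7 CPM in MkP and 0.044 to 1431 CPM in CFU. Mmp8 had no count in HSC or CFU, Retnlg none in CFU and Ly6g none in MkP.

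Of 13 regulators and receptors of the myeloid lineage, 1 rose and 3 fell in MkP, and 1 rose and 6 fell in CFU, each against HSC. Of all genes, 17.4% rose and 13.6% fell in MkP, and 28.8% rose and 36.1% fell in CFU. Csf3r fell from 96.4 CPM in HSC to 10.6 CPM in MkP (-3.10 ± 0.79, adjusted p = 0.00411) and 2.80 CPM in CFU (-4.67 ± 0.87, adjusted p = 5.21e-05). Spi1, which encodes PU.1, fell in CFU from 90.8 to 4.63 CPM (-3.88 ± 0.70, adjusted p = 3.41e-05). Runx1 rose in MkP from 127 to 162 CPM (0.45 ± 0.10, adjusted p = 0.00127). Of the 6 NADPH oxidase genes 0 were called in MkP against HSC (edgeR), and 4 fell in CFU against HSC, among them Rac2 from 455 to 119 CPM (-1.52 ± 0.12, adjusted p = 9.29e-11).

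In MkP against HSC, 6 of the 6 mast cell and basophil genes that passed the filter rose, beside 17.4% of all genes. Fcer1a rose from 4.04 to 47.5 CPM (4.89 ± 1.09, adjusted p = 0.00129) and Mcpt8 from 0.050 to 34.5 CPM (8.58 ± 2.99, adjusted p = 0.0316). The summed level of the mast cell and basophil genes was 52.5 to 968 CPM in MkP, 3.30 to 32.6 CPM in HSC and 0.581 to 12.5 CPM in CFU. At least 4 of the 8 were at 50 CPM in 6 MkP cells, and Cma1 had no count in HSC. Monocyte and macrophage genes summed to 36.6 to 112 CPM in MkP, 13.3 to 108 CPM in HSC and 1.85 to 152.5 CPM in CFU, with 1 of 10 higher in MkP than HSC. Eosinophil genes reached at most 3.38 CPM in any sum, and Prg3 and Epx had no count in any population. The part of these cells in the granule gene levels was not tested.

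The genes most like the granule genes over the 24 sums were ranked by Pearson's r with the mean of the standardised members. Clec12a, a myeloid lectin receptor gene, came first (r = 0.88, a gene of the promyelocyte list as is Igsf6), followed by Anxa3 (0.82), Dtx4 (0.79), Ncf1 (0.76), Tyrobp (0.76), Ly6c2 (0.74), Hp (0.74), Cd52 (0.72), Ccl9 (0.72) and Igsf6 (0.72). The points share mice and libraries, and the values are a description. Of the counts of these genes in CFU, 78.1% (Dtx4) to 99.9% (Ly6c2) lay in the 10 granule-rich cells. Between the members themselves, log levels of Mpo and Ctsg had r = 0.90 and those of S100a8 and S100a9 r = 0.75 over the same sums. Prtn3 went with Lyz2 (r = 0.79) more than with Mpo (r = 0.14) or Elane (r = 0.38), and no test was made of that order.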

How the data were processed

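Single cells of 8 mice were measured by Smart-seq2 in 3 sorted populations. The deposited matrix holds whole-number read counts per gene and well. The authors used Trim Galore 0.5, STAR 2.6.0 and HTSeq 0.6.1, per the submitters' processing notes, and the genome build is not given in the sources used here. A single column (1) matched no sample title and was not used.

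Wells with at least 20000 counts, 1000 genes and at most 20% mitochondrial counts were kept and summed per mouse and population (24 sums). Precision is limited by the number of mice. The sums were compared with edgeR 4.0.16 (TMM scaling, quasi-likelihood test, Benjamini-Hochberg adjustment over all genes tested, threshold 0.05) in R 4.3.3, after a test on simulated data. Populations were compared over all sums with treatment but not the mouse in the fit, and treatments within each population over 8 sums. DESeq2 1.42.0, the mouse as a block, other scaling, cell and gene filters, thinning to 20000 counts and leaving out each mouse were alternatives. Populations of 1 mouse come from the same animal, and their deviations correlated at 0.009 to 0.188 (24 pairs, 10709 genes), against a median of -0.025 between mice. Mouse numbers do not pair control with depleted mice.

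A cell carried a gene at 50 CPM of its own counts or more. Named were all 9 genes, up to 3 called genes of each list with the largest fold change and a mean of at least 1 CPM, marker genes in carrying cells and the 10 genes most like the set. The members and lists were chosen with earlier results of these data known. Some genes of the lists are not reported here.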

Additional observations from a re-analysis of the deposited data

Results flagged for a closer look

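In 15 of 44 groups of 4 mice, 1 mouse stood far from the other 3 by Dixon's ratio. The ratio's chance rate of about 1 in 20 holds for independent, normally distributed values. Here single cells carried much of many sums, and the same cells fed several genes. That rate therefore does not apply, and the count of 15 only lists mice for a closer look. In MkP, control mouse 2 had Mpo at 227 CPM (11.4 CPM without its highest cell), Ctsg at 45.5 CPM (4.37 CPM) and Elane at 5.45 CPM (0.0627 CPM). Depleted mouse 4 had Mpo at 45.2 CPM in MkP (9.64 CPM without its highest cell), and control mouse 4 had S100a8 at 15.4 CPM (1.33 CPM). In CFU, control mouse 3 had S100a8 at 1040 CPM (599 CPM without its highest cell), S100a9 at 943 CPM (601 CPM), Lyz2 at 201 CPM (82.9 CPM) and Cebpe at 1.89 CPM (1.23 CPM). Depleted mouse 4 had S100a8 at 64.1 CPM and S100a9 at 29.7 CPM in CFU, each 0.117 CPM without its highest cell. In HSC, depleted mouse 4 had S100a8 at 129 CPM (1.49 CPM without its highest cell) and S100a9 at 79.4 CPM (0.17 CPM). Elane stood at 2.44 CPM in HSC of depleted mouse 1 (0.873 CPM without its highest cell), and Mpo at 2.75 CPM in HSC of control mouse 4 (1.11 CPM).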

How the results depend on the processing

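Over the alternatives, 142 of 153 values for MkP against HSC, 140 of 154 for CFU against HSC and 126 of 153 for CFU against MkP kept direction and call. With the mouse as a block, 3, 4 and 2 members were called in these comparisons, beside 29.8%, 60.8% and 52% of all genes. In CFU against MkP, DESeq2 called 2 (56.9% of all genes), thinned cells 3 (69%), and leaving out 1 mouse 2 to 7 (52.2% to 53.3%). DESeq2 called 2 members between depleted and control MkP and 3 over the interactions. Cells with most of the members numbered 16 in HSC and 95 in MkP with at least 3 members, and 0, 2 and 0 in HSC, CFU and MkP with at least 7. At 200 CPM they numbered 0 in HSC and 1 in MkP, and at 10 CPM 8 in MkP.

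The following log2 fold changes changed sign, and the cause was not tested. Under the block, Elane (-0.88) and S100a9 (0.051) did so in MkP against HSC, and S100a8 (-1.33) and S100a9 (-1.30) in CFU against HSC. In CFU against MkP the block gave -0.10 for Ctsg, -0.61 for Prtn3, -0.73 for S100a8 and -1.35 for S100a9. With each gene's highest cell left out, Elane (-2.97) and S100a9 (1.34) reversed in MkP against HSC and Prtn3 (-1.83) in CFU against MkP. DESeq2 gave -0.075 for Cebpe in CFU against HSC.

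Leaving out 1 mouse each gave -1.75 to 2.02 for Elane and -5.62 to 0.71 for S100a8 in MkP against HSC. In CFU against HSC it gave -0.86 to 5.75 for S100a8, -1.07 to 6.15 for S100a9 and -2.72 to 2.19 for Cebpe. In CFU against MkP it gave -0.072 to 0.465 for Prtn3, -1.0 to 0.055 for Ms4a3, -0.96 to 8.01 for S100a8 and -0.079 to 7.51 for S100a9, with Prtn3, S100a8 and S100a9 lowest without control mouse 3.

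RLE scaling moved the median of all genes in CFU against HSC from -0.23 to -0.34 on the log2 scale. It called 4, 6 and 4 members in MkP against HSC, CFU against HSC and CFU against MkP, where TMM scaling called 4, 6 and 5. Of all genes it called 30.4%, 65% and 55.2% there. With all 24 sums in 1 fit, 47 genes in HSC and 51 in CFU were called between depleted and control mice, against 0 and 0. For MkP, CFU and HSC, DESeq2 called 955, 472 and 267 genes and thinned cells gave 93, 20 and 37, against 2, 0 and 0.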
